A study of Homo sapiens with 6 samples.

Results

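The mitosis and spindle genes are 36 genes of the G2/M transition, the kinetochore, the spindle and cytokinesis. They were found by their gene symbol in a table of read counts for 60664 genes, which held each of the 36 once. RNA sequencing compared 2 groups of PC9OR cells, which the labels describe as lung cancer cells. PC9 is an established human line of lung adenocarcinoma that carries an activating EGFR mutation. All libraries are labelled PC9OR and not PC9, and how PC9OR differs from PC9 is not described here. The control group, NC, and the GLMP knockdown group, si-GLMP, had 3 libraries each and share the cell line; the labels name no other treatment. The sequence of the knockdown reagent, its dose and the time after knockdown were not given in the sources used here, nor was the source of each replicate, so p-values measure the spread between libraries, which may be technical.

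Mitosis is driven by CDK1 bound to cyclins B and A, whose activation is set by CDC25 phosphatases against WEE1 and PKMYT1. Aurora and Polo kinases build the spindle, the checkpoint holds anaphase back until kinetochores are attached, and the anaphase-promoting complex then marks cyclin B and securin for destruction. Most of these genes are transcribed late in the cell cycle by the MuvB complex with MYBL2 and FOXM1, and are repressed by DREAM, often through a promoter element called the CHR. In tumour samples and cell lines their summed level is widely used as a measure of proliferation. In a bulk library, fewer cells in G2 and mitosis and less RNA per such cell cannot be told apart.

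Library totals ran from 19896875 to 22372878 counts. GLMP, the targeted gene and a lysosomal membrane protein, had 309, 344 and 347 counts in NC, against 82, 61 and 65 in si-GLMP (a log2 difference of -2.25; adjusted p = 1.16e-18 by the quasi-likelihood test of edgeR, adjusted over all tested genes). Epithelial markers were high (EPCAM at 459 CPM and KRT8 at 3354 CPM in NC, where CPM is the count scaled by TMM to a common library total). In si-GLMP, EPCAM rose to 567 CPM (adjusted p = 0.000294 by edgeR) and CDH1 from 315 to 388 CPM (0.000358). KRT8, KRT18 and KRT19 were not called. The lung lineage markers NKX2-1, NAPSA and SFTPB had at most 13 counts in any library. Of 6 leukocyte markers, LYZ and TYROBP had 0 counts in all libraries, and the 6 summed to 0.881 to 1.33 CPM in NC and 0.630 to 1.17 CPM in si-GLMP. The 7 fibroblast and endothelial markers summed to 12.3 to 14.1 CPM in NC and 18.1 to 19.4 CPM in si-GLMP, led by COL1A1 at 5.38 and 10.1 CPM, while DCN had at most 1 count in a library. This sum moved with the group, and its part in the results was not tested. Mitochondrially encoded genes took 6.57%, 8.76% and 6.51% of the counts in NC, against 5.19%, 5.51% and 5.33% in si-GLMP, so each si-GLMP library lay below each NC library. With these genes removed, 5 members were again lower and 1 higher, among 1866 lower and 1831 higher of all tested genes.

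Most mitosis and spindle genes were not called changed after GLMP knockdown. One of the 36, NUSAP1, was too low to be tested. Of the 35 tested, 5 fell (AURKA, CENPF, FOXM1, BUB1B and CIT), 1 rose (CDC25B) and 29 did not pass an adjusted p of 0.05 by edgeR. The 6 called members are 17.1% of those tested, against 23.3% of all 15900 tested genes. By direction, 14.3% of the members fell against 11.3% of all tested genes, and 2.86% rose against 12.0%. The estimates lay below 0 in 26 members and above in 9, with a median log2 fold change of -0.08 and a median of 0.00 over all tested genes. NC and si-GLMP were fully separated in CPM in 9 members, 25.7%, against 36.5% of all tested genes. An unadjusted p under 0.05 by edgeR was reached by 12 of the 35 members and by 5347 of all 15900 tested genes. DESeq2 and limma-voom made the same 6 calls.

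**Figure D1:**
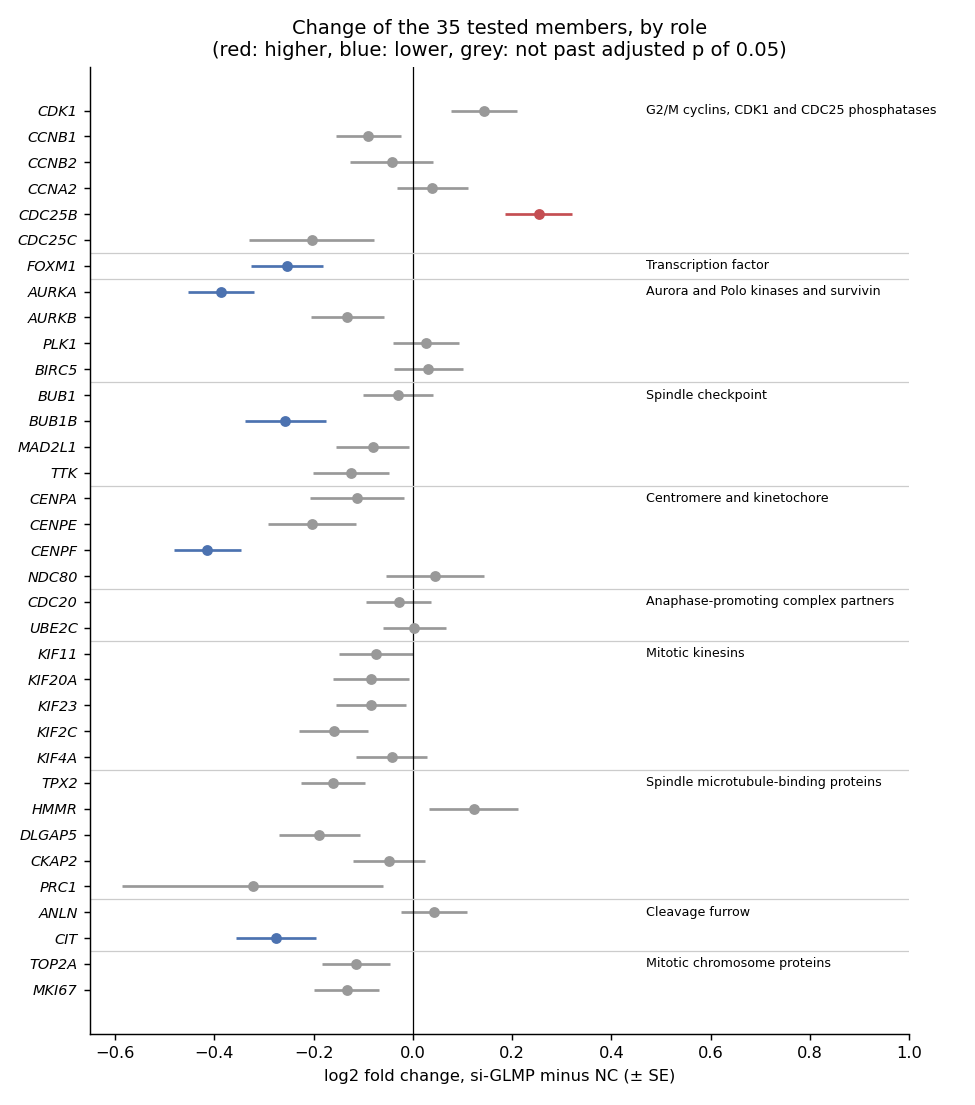
Log2 fold change (si-GLMP minus NC, horizontal axis) with its standard error for the 35 tested members, grouped by role; red marks the 1 higher, blue the 5 lower and grey the 29 members not past the threshold. AURKA and CENPF lie farthest from 0 among the called members, and the wide bar of PRC1 goes with its low counts.

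Many members hold, near their start, the CHR element known from late cell cycle genes. The CHR was searched as TTTGAA on both strands, in windows from 250 bases before to 50 bases after the RefSeq gene start (GRCh38.p14). Windows were matched for 30 of the 36 members, and not for FOXM1, AURKA, BIRC5, TTK, UBE2C and TPX2. TTTGAA was found in 20 of the 30, 66.7%, against 9.67% of the 10956 matched promoters of tested genes and 15.4% of all 27305 promoters. In the last 100 bases of the window, around the start, it was found in 16 members, 53.3%, against 2.73% of the promoters of tested genes. A second sequence, TTCGAA, was also searched. It was found in 2 of the 30, 6.67%, against 1.67% of the promoters of tested genes. These were NDC80, which also had TTTGAA, and BUB1, which did not. A CCAAT box, searched as CCAAT on both strands, was found in 22 members, 73.3%, against 36% of the promoters of tested genes, and 43.3% of the members held at least 2 against 13.4%. A match of letters is a description of the promoter and not a measured binding site.

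The windows around TTTGAA are shown for the 3 members that fell and had it, and for 7 that were not called, to set the promoters of both classes side by side. AURKA and FOXM1 also fell, but had no matched window, so the element could not be searched in them. Each has up to 12 bases on either side, reads 5′ to 3′ on the strand given, and has the element in capitals; where a promoter held several, the one nearest the start is given.
BUB1B (fell; chr15:40161034-40161063, plus strand): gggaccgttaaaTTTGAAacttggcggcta
CENPF (fell; chr1:214603223-214603244, plus strand): ggctgcgggcagTTTGAAttag
CIT (fell; chr12:119877293-119877322, plus strand): cccgccgccgcgTTTGAAcccgaggaacgg
KIF4A (not called; chrX:70290058-70290087, plus strand): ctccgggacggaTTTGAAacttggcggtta
CCNB2 (not called; chr15:59105105-59105134, plus strand): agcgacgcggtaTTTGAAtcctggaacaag
PLK1 (not called; chr16:23678848-23678877, plus strand): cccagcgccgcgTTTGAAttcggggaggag
CENPA (not called; chr2:26786026-26786055, plus strand): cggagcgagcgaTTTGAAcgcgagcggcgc
KIF23 (not called; chr15:69414282-69414311, plus strand): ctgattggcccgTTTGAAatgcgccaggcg
MKI67 (not called; chr10:128126435-128126464, minus strand): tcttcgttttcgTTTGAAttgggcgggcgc
ANLN (not called; chr7:36389830-36389859, plus strand): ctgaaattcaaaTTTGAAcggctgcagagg
BUB1B and KIF4A share a run of 16 bases across the element, ATTTGAAACTTGGCGG. BUB1B had a log2 fold change of -0.26 ± 0.08 and KIF4A one of -0.04 ± 0.07, and the difference between the 2 genes was not tested. Of the matched promoters, TTTGAA was present in 3 of 4 called members and in 16 of 25 members tested and not called. CDC25B, the member that rose, had neither TTTGAA nor CCAAT in its window. The same held for CDC25C, CENPE, KIF2C and CKAP2, which were not called.

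Among the cyclins, CDK1 and the CDC25 phosphatases, CDC25B was the 1 member called, and it rose. CDC25B removes inhibitory phosphates from CDK1 and starts its activation at the centrosome. Its level was 159, 170.0 and 149 CPM in NC replicates 1 to 3, against 185, 179 and 205 CPM in si-GLMP replicates 1 to 3. All si-GLMP libraries lay above all NC libraries. The log2 fold change was 0.25 ± 0.07 (SE; adjusted p = 0.00381 by edgeR), a rise of 19.2%. The call was lost without NC replicate 3 (adjusted p = 0.0592 by edgeR) or without si-GLMP replicate 3 (0.0732).

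CDK1, the kinase that drives entry into mitosis, had 217, 212 and 227 CPM in NC, against 225, 267 and 232 CPM in si-GLMP. The groups overlapped, with si-GLMP replicate 2 above the rest (a log2 difference of 0.14 ± 0.07, adjusted p = 0.118 by edgeR). Its cyclins were not called. CCNB1, the main mitotic cyclin, had 179.5, 160.2 and 173 CPM in NC, against 164, 157 and 161 CPM in si-GLMP (a log2 difference of -0.09, adjusted p = 0.359 by edgeR). CCNB2 had -0.04 and CCNA2, the cyclin of S phase and G2, had 0.04. CDC25C, which completes the activation of CDK1, stood at 11.5 ± 1.67 CPM in NC, against 9.98 ± 0.652 CPM in si-GLMP (mean ± SD, n = 3; a log2 difference of -0.20, adjusted p = 0.259 by edgeR).

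FOXM1, the forkhead transcription factor that activates many G2/M genes, fell. It had 104, 119 and 99.98 CPM in NC and 89.0, 85.4 and 96.4 CPM in si-GLMP. The groups did not overlap, but NC replicate 3 and si-GLMP replicate 3 were close to each other. The log2 fold change was -0.25 ± 0.07 (SE; adjusted p = 0.00680 by edgeR). Without NC replicate 2, the highest library, FOXM1 had -0.18 and an adjusted p of 0.0978 by edgeR. FOXM1 lies on chromosome 12 of GRCh38 from 2857681 to 2877155, and 15.9% of its exonic length overlaps ITFG2 on the opposite strand. ITFG2 stood 0.29 higher on the log2 scale (adjusted p = 0.0118 by edgeR). The strand setting of the counts is not given in the sources used here, so reads of the shared bases cannot be assigned to one of the genes. Opposite-strand overlap also covered 17.5% of the exonic length of GLMP, 12.5% of PLK1, 9.08% of CCNA2 and 8.78% of CDC25C. The same limit holds there, and for other members with smaller overlaps.

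AURKA, the kinase of centrosomes and spindle poles, fell by a similar amount in each si-GLMP library. Its level was 132, 134 and 133 CPM in NC, against 98.7, 104 and 102 CPM in si-GLMP. Libraries of a group differed by a few CPM only, and the groups were far apart. The log2 fold change was -0.39 ± 0.07 (SE; adjusted p = 1.02e-05 by edgeR), a decrease of 23.5%, and the call held in all 15 alternatives, with values between -0.40 and -0.37. AURKA (ENSG00000087586) lies on chromosome 20 from 56369389 to 56392337 on the minus strand. TPX2, the spindle protein that binds and activates AURKA, had 269, 282 and 258 CPM in NC, against 226, 252 and 246 CPM in si-GLMP. Its groups did not overlap, but it missed the threshold (a log2 difference of -0.16 ± 0.06, adjusted p = 0.0641 by edgeR).

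AURKB, the kinase of the chromosomal passenger complex, had 75.9, 70.1 and 73.5 CPM in NC, against 70.4, 61.5 and 68.4 CPM in si-GLMP (a log2 difference of -0.13 ± 0.07, adjusted p = 0.203 by edgeR). It passed when a trend on GC content and length was removed from each library, at -0.22 (adjusted p = 0.00351 by edgeR). BIRC5, survivin, a subunit of the same complex, had 0.03 and PLK1, the Polo kinase, also 0.03. PLK1 stood at 183 ± 14.7 CPM in NC, against 186 ± 6.62 CPM in si-GLMP (SD, n = 3 each; adjusted p = 0.826 by edgeR). Of the other complex subunits, CDCA8 (borealin) fell by 0.22 on the log2 scale (adjusted p = 0.0242 by edgeR) and INCENP had -0.08 (0.460). CDCA8 and INCENP were chosen after their values were seen.

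**Figure D2:**
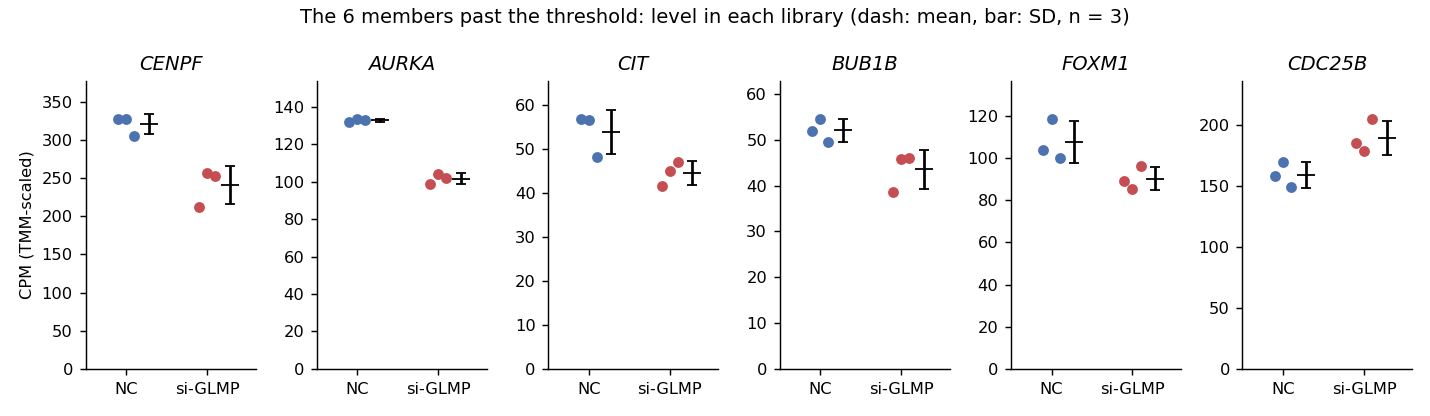
Level (CPM scaled by TMM, vertical axis from 0) in each NC library (blue) and si-GLMP library (red) of the 6 members past the threshold, with the mean (dash) and SD (bar) of each group. The groups do not overlap in any of the 6, and the SD is narrowest, relative to the mean, for AURKA.

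Of the 4 spindle checkpoint genes, BUB1B alone was called. It encodes BUBR1, a part of the complex that inhibits the anaphase-promoting complex. BUB1B had 52.0, 54.6 and 49.5 CPM in NC, against 38.7, 45.8 and 46.1 CPM in si-GLMP, so si-GLMP replicate 1 was low and the other 2 were nearer to NC. The log2 fold change was -0.26 ± 0.08 (SE; adjusted p = 0.0153 by edgeR). BUB1B no longer passed without si-GLMP replicate 1 (-0.18, adjusted p = 0.126 by edgeR), without NC replicate 1 (0.0589) or without NC replicate 2 (0.0709). The kinases BUB1 and TTK, which recruit checkpoint proteins to kinetochores, had -0.03 and -0.13, and MAD2L1, which binds CDC20, had -0.08. Their edgeR adjusted p-values were 0.812, 0.258 and 0.479.

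CENPF had the lowest log2 fold change of the 35 members. It encodes a large protein of the nuclear matrix and outer kinetochore that builds up in G2. Its level was 328, 328 and 305 CPM in NC, against 212, 256 and 253 CPM in si-GLMP. All si-GLMP libraries lay below all NC libraries, and replicate 1 was the lowest. The log2 fold change was -0.41 ± 0.07 (SE; adjusted p = 3.32e-06 by edgeR), a decrease of 25.0%. The call held in all 15 alternatives, with values between -0.46 and -0.33. CENPF (ENSG00000117724) lies on chromosome 1 from 214603195 to 214664588 on the plus strand. CENPE, the kinetochore motor that carries chromosomes to the spindle equator, had 67.5, 75.2 and 70.1 CPM in NC, against 49.9, 69.5 and 65.5 CPM in si-GLMP. Only si-GLMP replicate 1 stood clearly below NC, and CENPE was not called (a log2 difference of -0.20 ± 0.09, adjusted p = 0.0994 by edgeR). It passed once the GC and length trend was taken out (0.00943). CENPA, the histone of centromeres, had -0.11 and NDC80, which binds microtubules at the kinetochore, 0.04.

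The 2 partners of the anaphase-promoting complex were not called. CDC20, its activator, had 208, 196 and 199.7 CPM in NC and 203, 184 and 204 CPM in si-GLMP. UBE2C, its ubiquitin-conjugating enzyme, had 218, 216 and 214 CPM in NC, against 222, 209.7 and 217 CPM in si-GLMP. Both pairs of groups overlapped, with log2 fold changes of -0.03 ± 0.07 and 0.003 ± 0.06. By edgeR 0 of the 2 passed, also at an unadjusted p under 0.05.

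The 5 mitotic kinesins were all slightly below 0, and by edgeR 0 passed the adjusted threshold. At an unadjusted p under 0.05 by edgeR there was 1, against 5347 of all 15900 tested genes. That one was KIF2C, the kinesin that takes microtubules apart at centromeres, with 117, 108 and 112 CPM in NC, against 106, 95.7 and 99.7 CPM in si-GLMP. Its groups did not overlap (a log2 difference of -0.16 ± 0.07, adjusted p = 0.0871 by edgeR). KIF11, which pushes the spindle poles apart, had 112, 107 and 116 CPM in NC, against 90.9, 119 and 108 CPM in si-GLMP, where si-GLMP replicate 1 was the lowest and replicate 2 the highest of the 6. KIF20A and KIF23, motors of the central spindle, both had -0.08, and the chromosome motor KIF4A -0.04.

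Among the other spindle-binding proteins, DLGAP5, which stabilises kinetochore fibres, had 55.8, 56.2 and 58.4 CPM in NC, against 43.2, 50.8 and 55.6 CPM in si-GLMP. The groups did not overlap, though by a small margin (a log2 difference of -0.19 ± 0.08, adjusted p = 0.0860 by edgeR). HMMR, a hyaluronan receptor that also sits on the spindle, had 64.8, 67.7 and 63.1 CPM in NC, against 57.3, 81.1 and 74.4 CPM in si-GLMP. Here si-GLMP replicate 1 lay below NC and the other 2 above it (a log2 difference of 0.12 ± 0.09, adjusted p = 0.362 by edgeR). CKAP2, which promotes microtubule growth, had -0.05. By edgeR 0 of the 5 tested genes of this group passed. At an unadjusted p under 0.05 there were 2, against 5347 of all 15900 tested genes.

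NUSAP1 and PRC1, which bundle spindle microtubules, were almost missing from the counts. NUSAP1 had 5, 7 and 0 counts in NC and 8, 10 and 4 in si-GLMP, and PRC1 had 43, 41 and 37 in NC and 31, 27 and 38 in si-GLMP. Per kilobase of exon, PRC1 stood at 0.350 CPM and NUSAP1 at 0.0688 CPM in NC, whereas the next lowest member, CDC25C, stood at 3.45 CPM. Both genes share most of their exons with another gene on the same strand in GENCODE 29. NUSAP1 shares 62.2% of its exonic length with ENSG00000285920, and PRC1 shares 57.6% with ENSG00000284946. ENSG00000285920 had 0 counts in each library, and ENSG00000284946 had 130, 108 and 129 counts in NC and 105, 109 and 114 in si-GLMP. How reads shared by 2 genes were counted is not given in the sources used here, and the part of the overlap in these low values was not tested. The values of NUSAP1 and PRC1 are uncertain to that extent, and the log2 fold change of PRC1, -0.32 ± 0.26, was not called (adjusted p = 0.417 by edgeR). No other member shared more than 10.2% of its exons with a gene on the same strand.

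At the cleavage furrow, CIT fell and ANLN did not pass. CIT encodes citron kinase, which binds active RhoA and acts in late cytokinesis. CIT had 56.9, 56.5 and 48.2 CPM in NC, against 41.5, 44.9 and 46.9 CPM in si-GLMP, and NC replicate 3 was close to the si-GLMP libraries. The log2 fold change was -0.28 ± 0.08 (SE; adjusted p = 0.00879 by edgeR). The call was lost without NC replicate 1 (-0.23, adjusted p = 0.0921 by edgeR) or without si-GLMP replicate 1 (-0.23, 0.0548). ANLN, the scaffold that ties RhoA, actin and septins together, had 289, 304 and 283 CPM in NC, against 269, 331 and 302 CPM in si-GLMP. The groups overlapped (a log2 difference of 0.04 ± 0.07, adjusted p = 0.714 by edgeR).

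The proliferation markers MKI67 and TOP2A were not called. MKI67, the Ki-67 protein of the mitotic chromosome surface, had 522, 593 and 484 CPM in NC, against 476, 489 and 493 CPM in si-GLMP. The si-GLMP libraries lay together near the lowest NC library (a log2 difference of -0.13 ± 0.07, adjusted p = 0.144 by edgeR). TOP2A, the topoisomerase that untangles sister chromatids, had 256, 246 and 261 CPM in NC, against 208, 259 and 238 CPM in si-GLMP (a log2 difference of -0.11 ± 0.07, adjusted p = 0.238 by edgeR). By edgeR 0 of the 2 passed. At an unadjusted p under 0.05 there was 1, against 5347 of all 15900 tested genes. Per kilobase of exon, UBE2C had the highest level of the 36 in NC at 168 CPM, followed by CDC20 at 98.7, TPX2 at 74.7 and CCNB1 at 66.8 CPM.

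Libraries of the same group differed among themselves in these genes. Within the si-GLMP group, replicate 1 had the lowest value in 21 of the 35 tested members, 60.0%, against 32.1% of all tested genes. Replicate 2 had the highest value in 18 members, 51.4%, against 35.2% of all tested genes. Within NC, replicate 3 had the lowest value in 18 members, 51.4%, against 31.0% of all tested genes, and the highest in 5, 14.3%, against 31.9%. The median member stood -0.17 from its NC mean on the log2 scale in si-GLMP replicate 1, -0.04 in replicate 2 and -0.06 in replicate 3. The 36 genes together took 0.405% of the counts of si-GLMP replicate 1 and between 0.443% and 0.455% of each other library. Without si-GLMP replicate 1, the median log2 fold change of the members was -0.04. The member calls were 3 higher and 4 lower, among 1702 higher and 1622 lower of all tested genes. CDK1 (0.19, adjusted p = 0.0416 by edgeR) and HMMR (0.25, 0.0139) then passed as higher beside CDC25B, and KIF2C (-0.20, 0.0431) as lower beside AURKA, CENPF and FOXM1. When si-GLMP replicate 2 was left out instead, TOP2A (adjusted p = 0.0364 by edgeR), CENPE and TPX2 passed as lower.

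**Figure D3:**
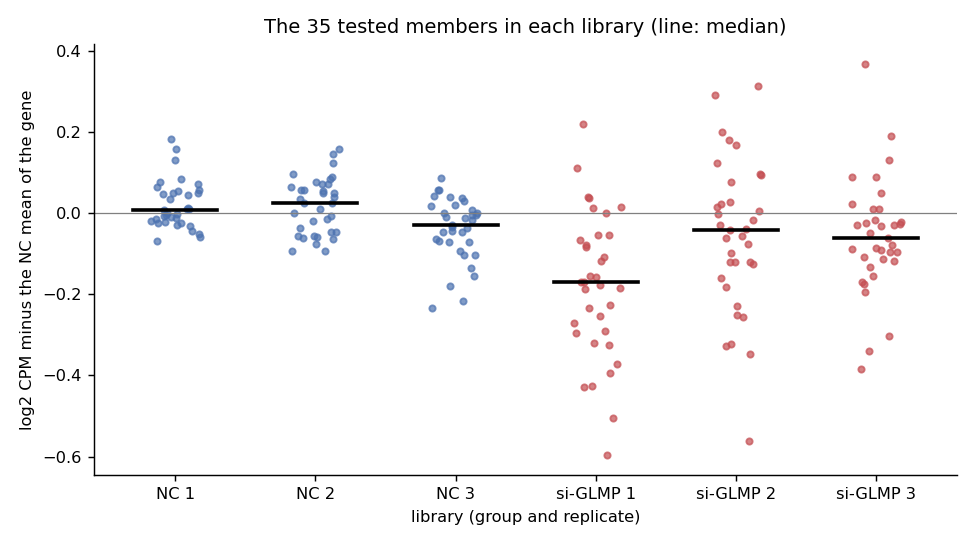
Log2 CPM of each of the 35 tested members minus its mean over the NC libraries (vertical axis), in the 6 libraries, with NC in blue, si-GLMP in red and the median as a line. The median is -0.17 in si-GLMP replicate 1 and -0.04 and -0.06 in the other 2 si-GLMP libraries.

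The other genes of mitosis were listed separately. Of 22 other spindle and cytokinesis genes, 7 fell, which is 31.8% against 11.3% of all tested genes. The other 15 did not pass, and 0 rose against 12.0% of all tested genes, with a median log2 fold change of -0.14 (edgeR; 0 also rose at an unadjusted p under 0.05, and by DESeq2 and limma-voom). The count of falls in this list ran from 5 to 10 over the alternatives. RACGAP1, the partner of KIF23 in centralspindlin and a regulator of RhoA at the furrow, fell from 111 ± 2.47 to 83.5 ± 2.38 CPM (mean ± SD, n = 3; a log2 difference of -0.42 ± 0.07, adjusted p = 4.05e-06 by edgeR). CEP55, which brings the abscission machinery to the midbody, fell by 0.36 on the log2 scale, the spindle protein gene CKAP2L by 0.37 and the microtubule destabiliser STMN1 by 0.32. ECT2, the exchange factor that activates RhoA at the furrow, was looked up after its values were seen and had -0.13 (adjusted p = 0.193 by edgeR).

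Of 26 other kinetochore and centromere genes, 5 fell, 1 rose and 20 did not pass, with a median of -0.03. The called share, 23.1%, was near the 23.3% of all tested genes, with 19.2% lower and 3.85% higher. KNL1, the scaffold of the outer kinetochore, fell by 0.36 on the log2 scale (adjusted p = 0.00205 by edgeR), the checkpoint gene KNTC1 by 0.27 and the CENPA loading factor MIS18A by 0.38. CENPM, an inner kinetochore subunit, rose by 0.40. Without NC replicate 3, 2 of the 26 fell, and 3 fell when NC replicate 1, its replicate 2 or si-GLMP replicate 3 was left out, or with no filter on low counts. CENPM did not pass without NC replicate 2. Of 15 condensin and cohesin genes, 2 fell, 13.3% against 11.3% of all tested genes. In this list 0 rose against 12.0% (0 also at an unadjusted p under 0.05 by edgeR and by DESeq2 and limma-voom). PTTG1, securin, fell by 0.25 (adjusted p = 0.00449 by edgeR), and the condensin gene SMC2 by 0.21 (0.0392). The count of falls was 1 by DESeq2, with no filter on low counts and in 5 of 6 leave-one-out fits, all but the one without si-GLMP replicate 2. Of 15 anaphase-promoting complex genes, 1 fell, CDC27, by 0.35 (adjusted p = 0.000181 by edgeR), and 0 rose, with 2 higher at an unadjusted p under 0.05 and 0 by DESeq2 and limma-voom. That is 6.67% lower against 11.3% of all tested genes, and 0 higher against 12.0%. Without si-GLMP replicate 2 the counts were 2 lower and 1 higher.

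Of 13 other regulators of mitotic entry, 3 rose, 1 fell and 9 did not pass, with a median of 0.02. These are 23.1% higher against 12.0% of all tested genes, and 7.69% lower against 11.3%. The count of higher genes was 2 with no filter on low counts and when replicate 1 or 3 of NC, or replicate 1 or 3 of si-GLMP, was left out. CDC25A, the sister phosphatase of CDC25B, rose from 35.9 ± 0.757 to 49.3 ± 0.535 CPM (mean ± SD, n = 3; a log2 difference of 0.46 ± 0.08, adjusted p = 1.18e-05 by edgeR). ENSA, a phosphatase inhibitor of mitotic entry, rose by 0.23 and CCNF, cyclin F, by 0.21. WEE1, the kinase that restrains CDK1, fell by 0.23 (adjusted p = 0.0420 by edgeR), a call that DESeq2 and limma-voom did not make. It was lost when replicate 1 or 2 of NC, or replicate 1 or 3 of si-GLMP, was left out. The call was also lost with upper-quartile scaling and with no filter on low counts.

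Of 17 genes of DREAM, MuvB, RB and E2F, which control the transcription of the class, 2 fell, 11.8% against 11.3% of all tested genes. In this list 0 rose against 12.0%, with 1 higher at an unadjusted p under 0.05 by edgeR. DESeq2 and limma-voom each called 3 lower and 0 higher, and without NC replicate 1 the count of higher genes was 1. TFDP2 fell by 0.27 on the log2 scale and the repressor E2F8 by 0.22, but with any 1 of the 3 NC libraries or si-GLMP replicate 3 left out the count of lower genes was 0, as it was with no filter on low counts, and without si-GLMP replicate 1 it was 1. MYBL2, the activator that precedes FOXM1 on these promoters, had 481 ± 40.4 CPM in NC, against 509 ± 26.1 CPM in si-GLMP (mean ± SD, n = 3; a log2 difference of 0.08, adjusted p = 0.421 by edgeR). E2F4, of the repressing DREAM complex, had 0.05 (adjusted p = 0.617 by edgeR). Of 7 CDK inhibitor genes, 3 rose, 42.9% against 12.0% of all tested genes. In this list 0 fell against 11.3%, with 0 lower at an unadjusted p under 0.05 by edgeR and 0 by DESeq2 and limma-voom. The count of higher genes was 2 by DESeq2, by limma-voom, with RLE scaling, without mitochondrially encoded genes, with no filter on low counts and in 5 of 6 leave-one-out fits, all but the one without NC replicate 3. CDKN1A, p21, rose from 46.9 ± 4.98 to 80.4 ± 4.15 CPM (a log2 difference of 0.78 ± 0.08, adjusted p = 1.40e-11 by edgeR). CDKN2C, an inhibitor of CDK4 and CDK6, rose from 2.52 ± 0.331 to 5.08 ± 0.634 CPM. CDKN2B, another inhibitor of CDK4 and CDK6, was just past the threshold with overlapping groups (a log2 difference of 0.31 ± 0.12, adjusted p = 0.0498 by edgeR).

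The genes of G1 and S phase had more calls than the mitosis and spindle genes, a difference that was not tested. Of 34, 12 fell, 2 rose and 20 did not pass, with a median of -0.10. These are 35.3% lower against 11.3% of all tested genes, and 5.88% higher against 12.0%. The count of lower genes ran from 8 to 15 over the alternatives. CDK6, the G1 kinase, fell from 256 ± 12.6 to 128 ± 8.52 CPM (mean ± SD, n = 3; a decrease of 49.9%, adjusted p = 1.14e-17 by edgeR). RRM1, the large subunit of ribonucleotide reductase, fell by 0.53 on the log2 scale while RRM2, its small subunit, rose by 0.35, and CDK2 fell by 0.44.

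**Figure D4:**
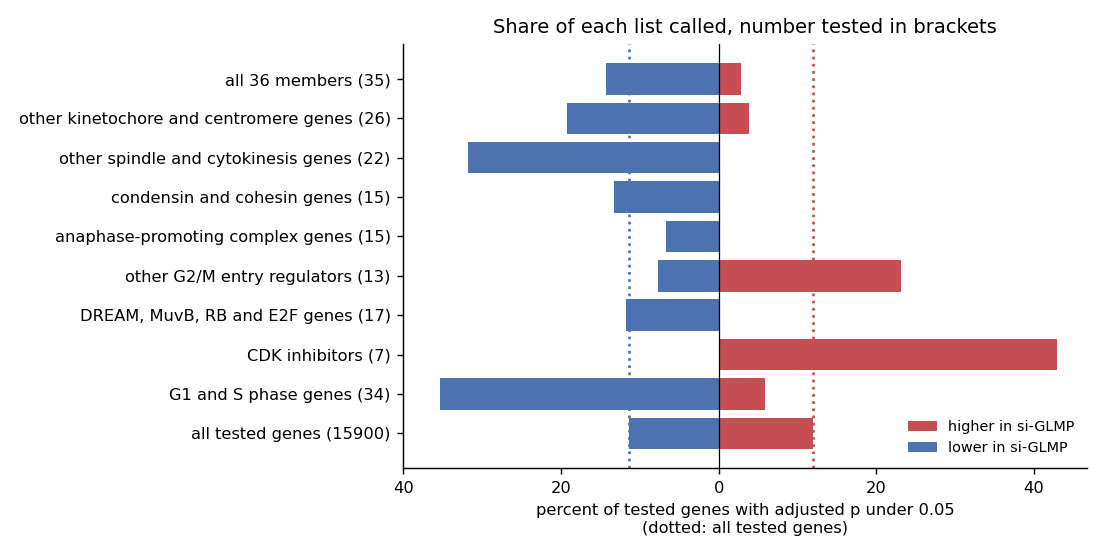
Percent of the tested genes of each list that passed an adjusted p of 0.05 by edgeR, lower in si-GLMP to the left (blue) and higher to the right (red), with the share of all tested genes dotted and the number tested in brackets. The mitosis and spindle genes are at 14.3% lower and 2.86% higher, and the G1 and S phase genes at 35.3% lower and 5.88% higher.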

How the data were processed

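The authors deposited whole-number read counts per gene with Ensembl identifiers and symbols; they were not normalized. Per the submitters' processing notes, reads were processed with HISAT2 and GRCh38; no counting tool, annotation or strand setting is given in the sources used here. Groups and replicate numbers came from sample titles. The analysis used edgeR 4.0.16 (R 4.3.3): filterByExpr with a minimum count of 10 left 15900 genes, libraries were scaled by TMM, and groups were compared by robust quasi-likelihood F tests with Benjamini-Hochberg adjustment over all tested genes and a threshold of 0.05. Standard errors were taken as the log2 difference over the root of F. CPM are scaled by TMM, and a count of 3 corresponded to 0.133 to 0.151 CPM. Exonic lengths and overlaps came from GENCODE 29 (GRCh38), promoters from RefSeq (GRCh38.p14). Alternatives were other scalings and filters, each library left out, a replicate block, DESeq2 1.42.0 and limma-voom 3.58.1; removal of a lowess trend on GC content and length was added after the data were seen. The test was checked on simulated data with a common dispersion for all genes. It recovered 32 of 50 genes changed 1.3-fold and 49 of 50 changed 2-fold, with 14 false calls. Changes below 1.3-fold, as in most members, were not simulated, so a member not called may still have changed. Named genes were GLMP, the 36 members, CDKN1A, MYBL2, E2F4 and up to 4 genes per further list with the smallest adjusted p. Outside this rule, cell type markers were named, ITFG2 for its overlap with FOXM1, and CDCA8, INCENP and ECT2 after their values were seen. The members and lists were chosen with earlier results of these data known. One further gene of the naming rule is not reported here.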

Additional observations from a re-analysis of the deposited data

How the results depend on the processing

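AURKA and CENPF kept their call in all 15 alternatives, whereas CDC25B, FOXM1, BUB1B and CIT each lost it in at least 1 leave-one-out fit and in no other alternative. With 1 library left out, the count of members called lower ran from 3 to 8 and of members called higher from 0 to 3. Over all tested genes, the same fits called 1283 to 1660 lower and 1482 to 1788 higher. With the GC and length trend removed, chosen after seeing the data, 10 members were lower and 1 higher. These counts were not set against the share of all tested genes called in that fit. Of the 29 members not called, 8 passed in at least 1 alternative and 21 in none. Whether the replicate numbers pair the libraries is not settled by these data. Deviations of same-numbered libraries correlated weakly, at 0.039, 0.026 and 0.0013. NC replicates 1 and 2 each correlated best with the si-GLMP library of the same number, and NC replicate 3 with si-GLMP replicate 2. With the replicate number as a block, 3972 genes were called against 3712, and 7 members were lower, with CENPE (edgeR adjusted p = 0.0259) and TPX2 (0.0492) added. Of the 35 members, 10 changed sign in some alternative, and none of these was called. UBE2C had -0.00091 with RLE scaling, -0.0048 without mitochondrially encoded genes, -0.00090 by DESeq2 and -0.048 once GC and length trends were removed, where PLK1 had -0.0062. Leave-one-out ranges on the log2 scale were -0.015 to 0.026 for UBE2C, -0.010 to 0.065 for BIRC5, -0.086 to 0.028 for BUB1, -0.021 to 0.092 for PLK1, -0.17 to 0.025 for KIF11, -0.12 to 0.033 for CKAP2, -0.0046 to 0.079 for CCNA2, -0.039 to 0.17 for NDC80, -0.050 to 0.019 for CDC20 and -0.031 to 0.12 for ANLN. NUSAP1 and PRC1 had at most 10 and 43 counts in a library, too few for a precise change, and the other 34 members had at least 191 counts in each library.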
